A study of Mus musculus with 7 samples.

Results

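The 10 genes described here encode thioredoxins, thioredoxin reductases, glutaredoxins and the proteins that act directly on them, and they were matched by symbol among the 14641 genes counted in the hearts of non-transgenic (NTG) and mNrf2-TG mice. Of the 10, 6 encode proteins of the cytosol (Txn1, Txnrd1, Txnip, Srxn1, Glrx and Nxn) and 4 encode proteins of the mitochondria (Txn2, Txnrd2, Glrx2 and Glrx5). The compartment is that in which the protein is generally known to work. It was not measured, and the reads came from RNA of whole heart lysate.

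Thioredoxins are small proteins that reduce disulfides in other proteins, and thioredoxin reductases, selenium-containing enzymes, restore them with electrons from NADPH. Glutaredoxins do related work with electrons from glutathione. The cytosol and the mitochondria of the heart muscle cell each have a thioredoxin and a reductase of their own, encoded by separate genes, and both deliver electrons to peroxiredoxins, which remove hydrogen peroxide. Nrf2, encoded by Nfe2l2, is a transcription factor that binds antioxidant response elements, and Txnrd1 and Srxn1 are textbook targets of it.

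The mNrf2-TG mice carry full-length mouse Nrf2 behind the αMHC promoter, which is active in cardiomyocytes, and the NTG mice are their littermates without the transgene. All animals are male and of the C57BL/6J strain. The sources differ on age: it is 6 months in the mNrf2-TG labels, 7–8 months in the series description and 6–7 months in the methods. The NTG labels give no age. There were 4 NTG libraries, numbered 1 to 4, and 3 mNrf2-TG libraries, numbered 17 to 19, with 6534684 to 8405857 and 6953122 to 8060644 counted reads. The labels name no founder line, so an effect of the line and one of the transgene cannot be told apart. Nfe2l2 itself was counted at 1402, 1253, 752 and 1050 normalized counts in NTG libraries 1 to 4 and at 12030, 10751 and 11654 in mNrf2-TG libraries 17 to 19 (Log2FC 3.36, SE 0.177, adjusted p = 2.96e-06, edgeR), so the transgenic libraries matched their labels.

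Normalized counts are reads on a gene scaled to a common library size with TMM factors. They allow a gene to be compared between libraries but not with another gene. Log2FC is the log2 ratio of mNrf2-TG to NTG from edgeR's quasi-likelihood fit over 14637 genes, and adjusted p is its Benjamini-Hochberg value over those genes. A gene passed the test where this was under 0.05.

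The bases just upstream of the start sites of the 3 genes with the largest increases are shown because antioxidant response elements often lie there. RefSeq promoter windows (GRCm38.p6) existed for all 10 genes, 16 windows in all, and their 250 upstream bases were searched on both strands. TGACNNNGC and TGAGNNNGC are core forms of the antioxidant response element, TGACTCA is the AP-1 element, which can overlap TGAGNNNGC, and CACGTG is the E-box. Capitals mark matches to these letters. Txnrd1 has 3 windows, and the one shown is the only one of them with a match. It lies at chr10:82858956-82859205 on the plus strand, upstream of an internal start site of the gene. The window just upstream of the annotated gene start, chr10:82833701-82833950, had no match and is not shown. The rest of this description concerns the window shown. By GENCODE M21 the last 27 bases of the window shown are exonic for another Txnrd1 transcript, and 52 bases are exonic for Gm38560 on the opposite strand. The Srxn1 window lies at chr2:152105274-152105523 on the plus strand, with 8 bases in the first exon by GENCODE. The Txn1 window lies at chr4:57956412-57956661 on the minus strand and overlaps no annotated gene.
Txnrd1: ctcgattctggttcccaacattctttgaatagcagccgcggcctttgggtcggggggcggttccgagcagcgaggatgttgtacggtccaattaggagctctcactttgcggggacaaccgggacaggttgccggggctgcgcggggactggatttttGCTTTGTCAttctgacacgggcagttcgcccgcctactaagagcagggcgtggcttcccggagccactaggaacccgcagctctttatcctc
Srxn1: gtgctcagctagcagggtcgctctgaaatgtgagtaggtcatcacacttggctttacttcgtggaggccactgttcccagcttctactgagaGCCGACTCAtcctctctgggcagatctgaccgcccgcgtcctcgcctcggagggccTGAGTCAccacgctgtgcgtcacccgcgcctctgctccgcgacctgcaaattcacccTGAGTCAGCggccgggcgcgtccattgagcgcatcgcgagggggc
Txn1: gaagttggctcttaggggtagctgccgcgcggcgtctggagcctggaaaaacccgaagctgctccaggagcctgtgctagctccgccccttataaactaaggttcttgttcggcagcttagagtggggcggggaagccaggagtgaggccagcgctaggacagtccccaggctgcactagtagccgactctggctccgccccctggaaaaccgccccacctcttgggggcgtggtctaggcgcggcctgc
TGACNNNGC was found in the Txnrd1 window, 92 to 84 bases upstream of the start site, and in 10.2% of all 32851 windows. Counted over all windows of a gene, it occurs in 13.7% of 11608 tested genes. The other Txnrd1 windows held none of the 4 motifs. Among the 10 genes TGACNNNGC was in no other window. The Srxn1 window held TGAGNNNGC at 158 to 150 and at 45 to 37 bases upstream, and TGACTCA, in reverse orientation, at 102 to 96 and at 45 to 39. TGAGNNNGC occurs in 14.4% of all windows and TGACTCA in 4.46%. Counted per tested gene, the shares are 18.7% and 4.2%. The Txn1 window, and that of Txnrd2, which also passed the test, held none of the 4 motifs. Among the genes that did not pass the test, Glrx has TGACTCA in both of its windows and Txn2 has TGAGNNNGC. Glrx2 has CACGTG in 1 of 4 windows (6.02% of all windows and 9.53% of tested genes hold CACGTG). These matches describe letters only and are not evidence of binding.

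Of the 10 genes, 4 passed the test, beside 17.2% of all genes tested. All 4 were higher in mNrf2-TG hearts, where 8.48% of all genes were called higher, and 0 were lower, where 8.73% of all genes were called lower. No member was lower at an unadjusted p under 0.05 either, and DESeq2 and limma-voom called none lower. An increase of more than 2-fold was called for 3 members, Txn1, Txnrd1 and Srxn1, all cytosolic, beside 2.29% of all genes. The groups did not overlap in 4 members, Txn1, Txnrd1, Srxn1 and Txnrd2, beside 29.7% of all genes.

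Txn1, the cytosolic thioredoxin, lies at chr4:57943373-57956411 on the minus strand (GRCm38). It had 454, 490, 514 and 546 normalized counts in NTG libraries 1 to 4 and 1157, 1135 and 1179 in mNrf2-TG libraries 17 to 19. The transgenic libraries were close to each other (SD 22.1 around a mean of 1157) and above all NTG libraries. Txn1 rose 2.31-fold (Log2FC 1.21, 95% interval 1.04 to 1.38, adjusted p = 1.05e-05). Of its 50-base stretches, 2.5% also occur in the pseudogene Txn-ps1.

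Txn2, the mitochondrial thioredoxin at chr15:77915047-77929006 on the minus strand, had 2676, 2501, 2389 and 2589 normalized counts in NTG hearts. In mNrf2-TG hearts it had 2337, 2263 and 2455, and the ranges overlapped. The Log2FC was -0.11 with an interval from -0.26 to 0.04 (adjusted p = 0.291), which does not reach the size of the Txn1 change.

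Txnrd1, the cytosolic reductase that restores Txn1, is at chr10:82833951-82897712 on the plus strand. It had 571, 633, 575 and 503 normalized counts in NTG hearts against 4009, 3983 and 2490 in mNrf2-TG hearts. Every transgenic library was above every NTG library, and library 19 was at 62.3% of the mean of the other mNrf2-TG libraries. Txnrd1 rose 6.12-fold (Log2FC 2.61, interval 2.26 to 2.97, adjusted p = 8.04e-06), and its Log2FC was 2.50 to 2.81 when each library in turn was left out. The gene span, introns included, shares 1305 bases with Eid3 on the same strand and overlaps Gm38560 and Gm47073 on the opposite one. Of the 50-base stretches of Txnrd1, 7223 in all, 0 also occur in another gene. The sources do not say whether strand was used in counting.

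Txnrd2, the mitochondrial reductase at chr16:18426384-18479073 on the plus strand, showed a small difference. NTG libraries had 213, 201, 239 and 212 normalized counts, and mNrf2-TG libraries 268, 271 and 269. The groups did not overlap, and the transgenic libraries were very close to each other (SD 1.58 around a mean of 269). Txnrd2 rose 1.25-fold (Log2FC 0.32, interval 0.12 to 0.51, adjusted p = 0.0331). This call was lost with DESeq2 (adjusted p = 0.0532) and in 6 of 7 fits that left out 1 library, with adjusted p up to 0.0887 without mNrf2-TG library 18. Among the leave-out fits it held only without NTG library 3, the highest NTG library (adjusted p = 0.0144). It also held with limma-voom (adjusted p = 0.0302) and in edgeR fits with other scalings and filters (adjusted p = 0.0212 to 0.0331). In all, it held in 6 of 13 alternative fits.

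Srxn1 encodes sulfiredoxin, which repairs peroxiredoxins whose active site has been over-oxidized. The gene, at chr2:152105516-152111376 on the plus strand, had 357, 362, 218 and 205 normalized counts in NTG hearts and 5011, 4595 and 2255 in mNrf2-TG hearts. It had the largest increase of the 10 genes, 13.8-fold (Log2FC 3.79, interval 3.13 to 4.45, adjusted p = 5.09e-05). As for Txnrd1, library 19 was lowest among the transgenic hearts, at 46.9% of the mean of the other 2. In the same library Txn1 was at 103% and Nfe2l2 at 102% of the others, so neither was lower there.

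Txnip, an α-arrestin that binds reduced thioredoxin and inhibits it, is at chr3:96557957-96561883 on the plus strand. It had 4144, 8246, 9078 and 6642 normalized counts in NTG hearts and 7353, 8979 and 7046 in mNrf2-TG hearts. NTG library 1 was the lowest of all libraries, and the other NTG libraries spanned the transgenic range. The Log2FC was 0.15 (interval -0.34 to 0.64, adjusted p = 0.686), and without NTG library 1 it was -0.03. The interval therefore spans changes in both directions. Gm15441 lies antisense to Txnip and holds 15.7% of its 50-base stretches.

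Glrx, the cytosolic glutaredoxin at chr13:75839868-75850154 on the plus strand, varied among NTG hearts. Its normalized counts were 205, 188, 477 and 308 in NTG libraries and 382, 324 and 470 in mNrf2-TG libraries. NTG library 3 was above all transgenic libraries, while libraries 1, 2 and 4 were below all of them. The Log2FC was 0.42 (interval -0.21 to 1.04, adjusted p = 0.345). Without NTG library 3 it was 0.75 and passed the test (adjusted p = 0.0178), so the outcome for Glrx turned on that library.

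Glrx2, a mitochondrial glutaredoxin that can carry an iron-sulfur cluster, is at chr1:143716338-143749676 on the plus strand. It had 245, 247, 204 and 264 normalized counts in NTG hearts and 210, 152 and 235 in mNrf2-TG hearts. The ranges overlapped, with mNrf2-TG library 18 the lowest (Log2FC -0.27, interval -0.60 to 0.06, adjusted p = 0.242). Of its 50-base stretches 4.02% recur in other genes, and the counts do not separate its isoforms.

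Glrx5, at chr12:105032688-105042906 on the plus strand, encodes the monothiol glutaredoxin of mitochondrial iron-sulfur cluster assembly. It had 1, 4, 2 and 1 reads in NTG libraries and 4, 1 and 1 in mNrf2-TG libraries. The group means were at or under 3 counts per library, so no fold change is given. Whether its reads were counted under another entry is not given in the sources used here, so these counts are not taken as a measure of how much Glrx5 the heart expresses. Nxn, or nucleoredoxin, a thioredoxin-like protein known to bind Dishevelled, is at chr11:76257198-76399140 on the minus strand. It had 85.0, 89.1, 121 and 106 normalized counts in NTG hearts and 93.6, 97.5 and 111 in mNrf2-TG hearts. The transgenic values lay inside the NTG range (Log2FC 0.01, interval -0.32 to 0.34, adjusted p = 0.974).

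**Figure D1:**
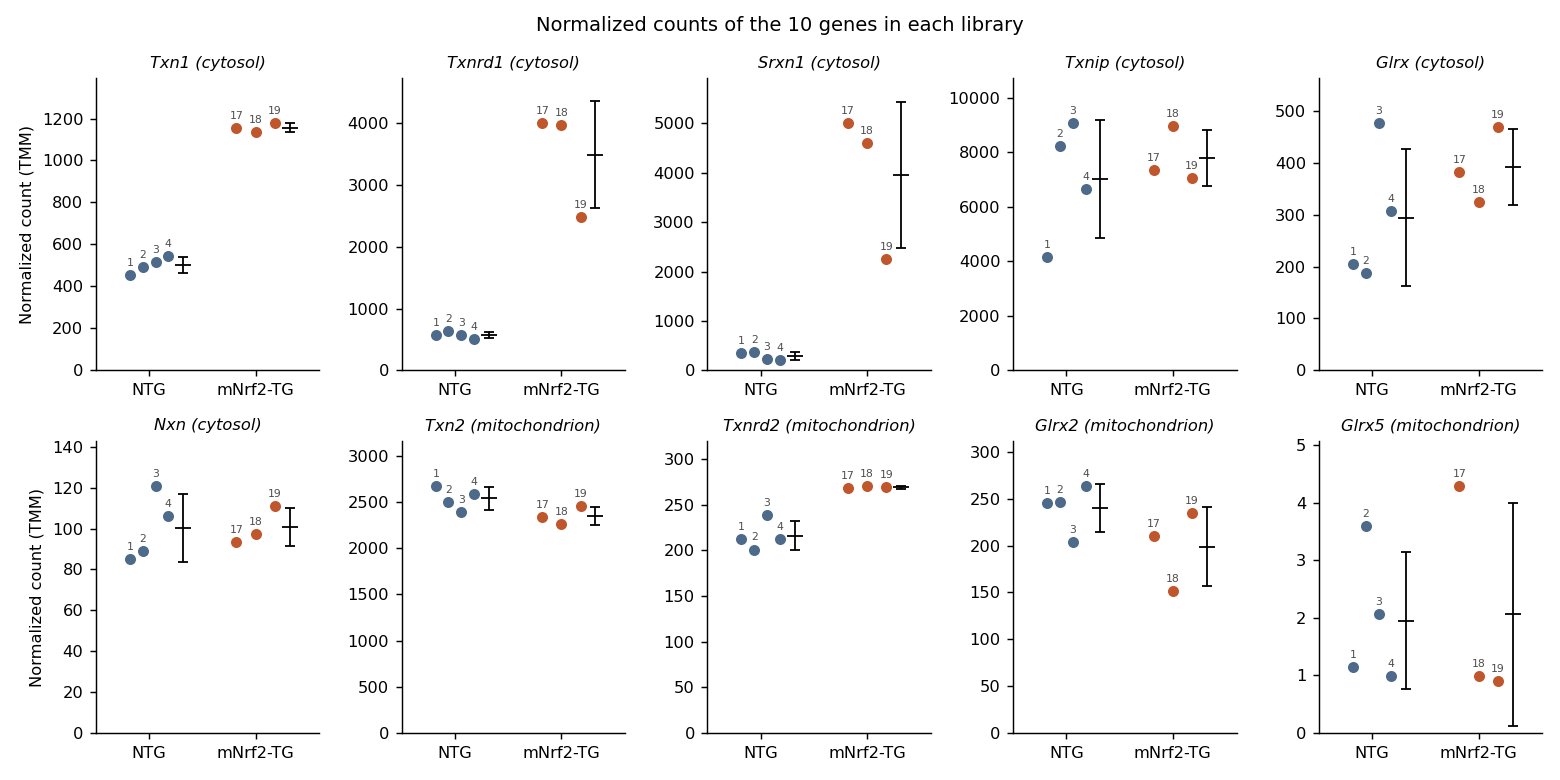
Normalized counts (TMM, vertical axes starting at 0) of the 10 genes in each library, with the library number beside each point; horizontal marks and bars are group means and SD over 4 NTG and 3 mNrf2-TG libraries. Txn1, Txnrd1, Srxn1 and Txnrd2 show no overlap between groups, and library 19 is the lowest transgenic library for Txnrd1 (2490) and Srxn1 (2255).

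By compartment, 3 of 6 cytosolic genes were called higher, beside 8.48% of all genes tested, and 3 did not pass the test. The cytosolic median Log2FC was 0.81, which lies in the gap between Glrx (0.42) and Txn1 (1.21). Among the 4 mitochondrial genes 1 was called higher and 3 did not pass. The median of the 3 mitochondrial genes with more than 3 counts was -0.11, and that of all genes tested was 0.00. The 3 cytosolic genes that did not pass, Txnip, Glrx and Nxn, had Log2FC of 0.15, 0.42 and 0.01. Within the cytosol, the thioredoxin, its reductase and sulfiredoxin rose, and the inhibitor, the glutaredoxin and nucleoredoxin did not pass the test.

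**Figure D2:**
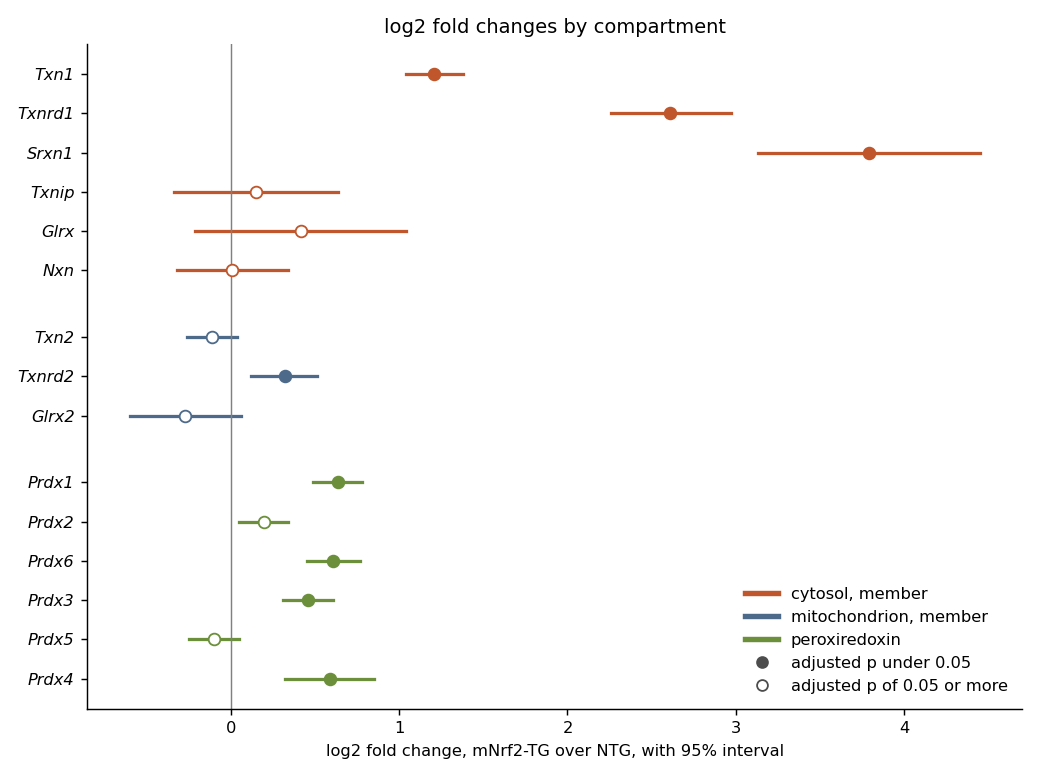
Log2FC of mNrf2-TG over NTG (horizontal axis) with 95% intervals for 9 members and 6 peroxiredoxins; filled points have an adjusted p under 0.05, and Glrx5 is left out for its low counts. Txn1, Txnrd1 and Srxn1 have intervals wholly above 1, and all 3 mitochondrial members have intervals below that.

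The cytosolic and the mitochondrial gene of the same function were compared directly by their count ratio within each library, which does not depend on library size. For the thioredoxins, Txn1 reads were 0.170, 0.196, 0.215 and 0.211 times those of Txn2 in NTG libraries 1 to 4. In mNrf2-TG libraries the ratio was 0.495, 0.502 and 0.480. The log2 ratio moved from -2.34 ± 0.15 (SD, n = 4) to -1.02 ± 0.03 (SD, n = 3), a difference of 1.32 or 2.50-fold. An exact two-sided permutation test of the group labels gave p = 0.0286, the smallest value that its 35 arrangements allow, and 0.0429 after adjustment over the 3 pairs. Because Txn1 and Txn2 differ in length, the ratio itself is not a ratio of molecules, and only its change is compared.

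For the reductases, Txnrd1 reads were 2.68, 3.15, 2.40 and 2.37 times those of Txnrd2 in NTG libraries and 14.9, 14.7 and 9.25 times in mNrf2-TG libraries. The groups were far apart, with library 19 again the lowest transgenic value. The log2 ratio rose from 1.40 ± 0.19 (SD, n = 4) to 3.66 ± 0.39 (SD, n = 3), a 4.81-fold change (exact permutation p = 0.0286, adjusted 0.0429). With group medians in place of means, the same exact permutation test gave p = 0.114 for the thioredoxins and p = 0.0571 for the reductases. Both calls were thus made with the mean only. Medians of 3 and 4 libraries are coarse, and arrangements that mixed the genotypes reached median differences as large. The groups did not overlap in either pair, so the median version says little about how far apart they are.

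For the glutaredoxins, Glrx reads were 0.836, 0.760, 2.34 and 1.17 times those of Glrx2 in NTG libraries and 1.82, 2.13 and 2.00 times in mNrf2-TG libraries. NTG library 3 had the highest ratio of all 7, so the groups overlapped. The log2 ratio differed by 0.79 (exact permutation p = 0.171, adjusted 0.171), and by 0.59 to 1.13 with 1 library left out. A shift between these genes was not separated from the spread between NTG hearts.

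**Figure D3:**
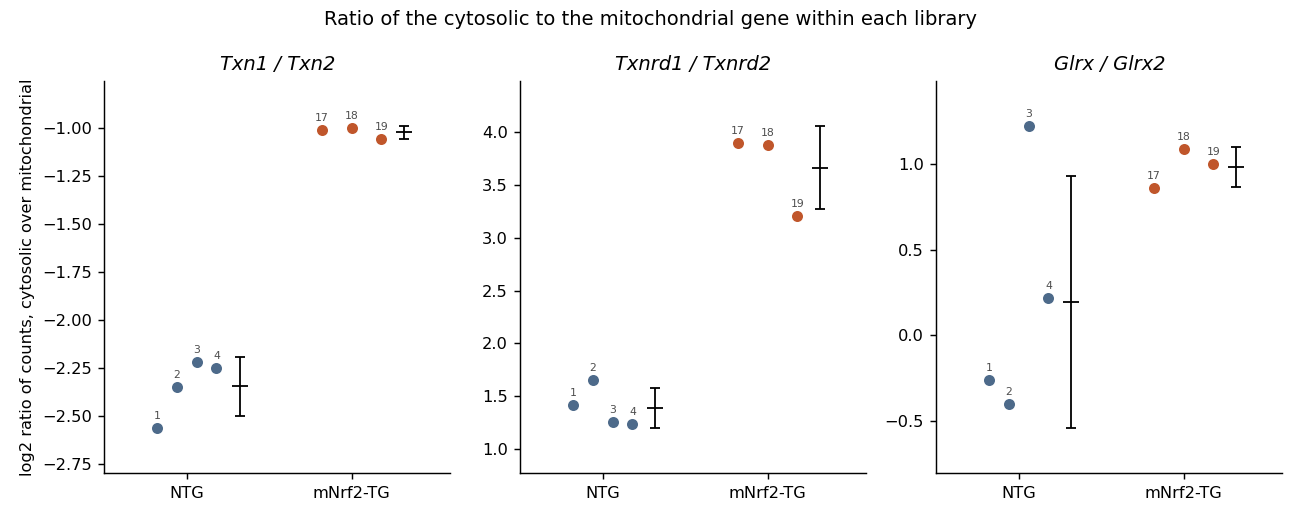
log2 ratio of the reads of the cytosolic to those of the mitochondrial gene (vertical axes differ and do not start at 0) in each numbered library, with group mean and SD. The groups are apart for Txn1 over Txn2 and Txnrd1 over Txnrd2, and overlap for Glrx over Glrx2 through NTG library 3.

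Levels were set between genes only per length, as RPKM, the reads per kilobase of exon after scaling for library size. Txnip had the highest level in NTG hearts, 299 ± 92.4 RPKM (SD, n = 4), followed by Txn2 with 80.2 ± 3.87 and Txn1 with 63.3 ± 4.89. The ranges of these 3 did not overlap. Srxn1 (13.5 ± 4.04), Txnrd1 (10.7 ± 0.996), Glrx (7.12 ± 3.22) and Txnrd2 (6.53 ± 0.493) came next, and each overlapped its neighbour in the order. Nxn (4.11 ± 0.670) and Glrx2 (3.64 ± 0.384) also overlapped each other. Glrx5, with its few reads, was placed last without a reading of its level.

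In mNrf2-TG hearts the order changed at the top. Txnip stayed highest at 332 ± 44.2 RPKM (SD, n = 3), and Srxn1 was next at 186 ± 70.0, overlapping Txn1 at 146 ± 2.79. Txn2, at 74.3 ± 3.06, lay below Txn1 without overlap and overlapped Txnrd1 at 65.5 ± 16.3. Thus Txn2 exceeded Txn1 in every NTG library and Txn1 exceeded Txn2 in every mNrf2-TG library on this scale. The order depends on the length used. With the longest transcript in place of all exons, Txn2 was at 153 and Txn1 at 146 RPKM in mNrf2-TG hearts, so the exchange at the top was lost. In NTG hearts Txnrd1 was then at 20.9 and above Srxn1 at 13.5, Txnrd2 at 9.99 was above Glrx at 9.25, and Glrx2 at 8.17 was above Nxn at 4.83. Of the 20 group means, 11 moved by more than their SD.

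**Figure D4:**
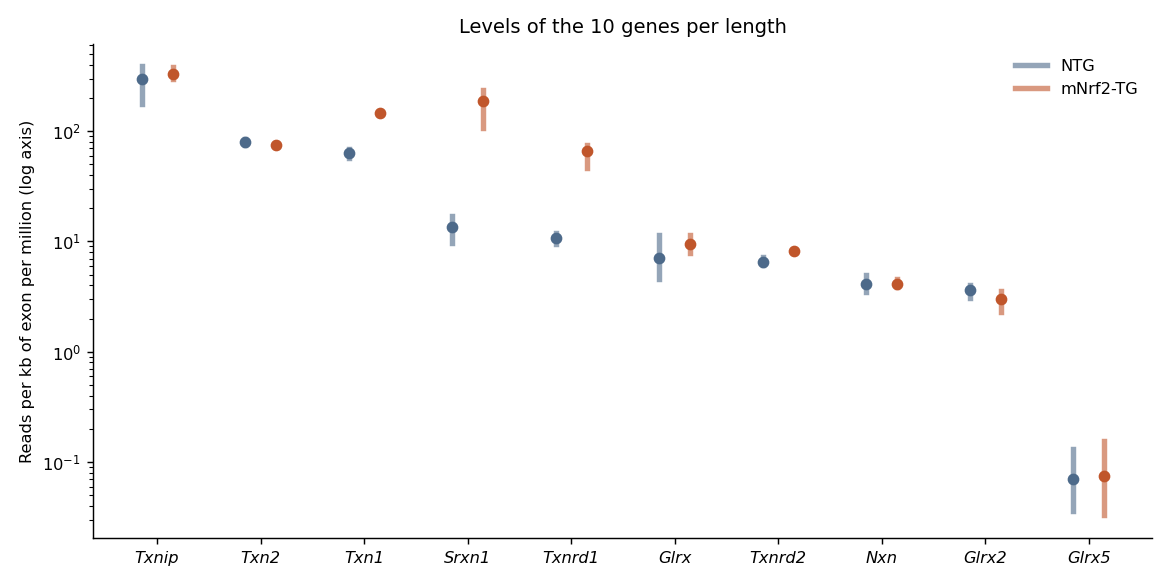
Levels of the 10 genes in RPKM (log axis), ordered by the NTG mean; points are group means and bars run from the lowest to the highest library. Srxn1, Txnrd1 and Txn1 are higher in mNrf2-TG hearts, and Glrx5, last, rests on 1 to 4 reads per library.

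The other genes of these pathways were described from lists. Over all genes tested, 8.48% were called higher and 8.73% lower, the shares to set beside each list. Of the 6 peroxiredoxins, the peroxidases that thioredoxins or, for Prdx6, glutathione reduce, 4 rose and 0 fell, with a median Log2FC of 0.52. Prdx1, of the cytosol, had 2432, 2363, 2290 and 2352 normalized counts in NTG hearts and 3915, 3583 and 3501 in mNrf2-TG hearts (Log2FC 0.64, adjusted p = 0.000311). Prdx6 (Log2FC 0.61, adjusted p = 0.00078) and Prdx4, which works in the endoplasmic reticulum (Log2FC 0.59, adjusted p = 0.00925), moved by about as much. Prdx3, the peroxiredoxin of the mitochondrial matrix that Txn2 reduces, had 2931, 2778, 2658 and 2624 normalized counts in NTG hearts and 3877, 3851 and 3601 in mNrf2-TG hearts (Log2FC 0.46, adjusted p = 0.0021). Prdx3 rose in every fit with 1 library left out, while Txn2 passed in none. Prdx2 (Log2FC 0.20, adjusted p = 0.0612) and Prdx5 (Log2FC -0.10, adjusted p = 0.331) did not pass the test. With each library left out in turn 4 peroxiredoxins were called, and with DESeq2, with scaling by library totals only or with the stricter filter filterByExpr 5 were, Prdx2 being the added gene.

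Among 11 further thioredoxin and glutaredoxin genes, 1 rose and 1 fell (median Log2FC -0.02). These 2 of 11 are near the 17.2% called over all genes tested. Gsr, glutathione reductase, which keeps glutathione reduced for the glutaredoxins, had 180, 220, 235 and 207 normalized counts in NTG hearts and 686, 690 and 518 in mNrf2-TG hearts. It rose 2.99-fold (Log2FC 1.58, adjusted p = 5.09e-05), and library 19 was at 75.3% of the others. Glrx3, a cytosolic monothiol glutaredoxin that carries iron-sulfur clusters, fell by 0.36 on the log2 scale (adjusted p = 0.00714). Txnrd3, a reductase best known from testis, had a Log2FC of 0.32 and did not pass (adjusted p = 0.0675). Of 4 methionine sulfoxide reductases, enzymes that thioredoxin recharges, Msrb1 alone passed (Log2FC 0.28, adjusted p = 0.0426), and it passed in 0 of 7 fits with 1 library left out.

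Around Txnip, 1 of 4 other α-arrestins passed the test: Arrdc2 fell by 1.72 on the log2 scale (adjusted p = 0.0361), with overlapping groups and in 3 of 7 fits with 1 library left out. In this list DESeq2 also called 1 gene, and limma-voom called 0. Among 3 genes for the glucose-sensing factors that drive Txnip transcription, Mlxipl, which encodes ChREBP, fell by 1.13 (adjusted p = 0.00105), and Mlx (Log2FC -0.09) and Mlxip (Log2FC -0.30) did not pass. Around Glrx5, 15 genes of iron-sulfur cluster assembly gave 2 higher and 1 lower (median Log2FC -0.09). These 3 of 15 are near the 17.2% called over all genes tested, so the count does not set this list apart. Nfs1, the cysteine desulfurase, rose (Log2FC 0.44, adjusted p = 0.00611), as did Iscu, the scaffold protein (Log2FC 0.42, adjusted p = 0.0187), and Bola3, a carrier partner of Glrx5, fell by 0.45 (adjusted p = 0.0112). Iscu passed in 5 and Bola3 in 6 of 7 fits with 1 library left out.

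As a measure beside the mitochondrial members, 13 genes for general mitochondrial proteins had a median Log2FC of -0.05. Of them 3 were called, beside 17.2% of all genes tested. Vdac3 was higher (Log2FC 0.22, adjusted p = 0.0368), and Cs and Timm23 were lower (Log2FC -0.21 and -0.39, adjusted p = 0.0461 and 0.023). With 1 library left out, Vdac3 and Cs each passed in 1 of 7 fits and Timm23 in 4 of 7. Their summed normalized counts were 37716 to 39527 in NTG hearts and 36194 to 36560 in mNrf2-TG hearts.

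Cell type markers moved with the groups. Of 10 cardiomyocyte markers 4 were lower and 0 higher, and their summed normalized counts were 761502 to 813108 in NTG and 656407 to 688138 in mNrf2-TG libraries. Of 7 fibroblast markers 5 were higher (sums 8438 to 10916 and 12251 to 13149), as were 5 of 7 macrophage markers (sums 2033 to 2582 and 3232 to 4280). Of 6 endothelial markers 1 was higher and 2 lower. By edgeR, 0 of 5 smooth muscle, 0 of 3 red blood cell and 0 of 3 adipose markers passed, and at an unadjusted p under 0.05 the counts were 0, 0 and 1. DESeq2 called 0 in these lists, and limma-voom called 1, Acta2. Acta2 had 1026, 1092, 7947 and 1886 normalized counts in NTG libraries 1 to 4 and 9353, 8266 and 5470 in mNrf2-TG libraries. NTG library 3 thus stood apart here too, inside the transgenic range. By edgeR the Log2FC of Acta2 was 1.37, and it passed in 1 of 7 fits with 1 library left out (adjusted p = 0.000132). Nppa was the 1 of 4 atrial markers that rose, Myl7 was near 0 in both groups, 2 of 6 skeletal muscle genes fell and 3 of 9 immediate-early and heat shock genes fell. Among the last, NTG library 3 stood apart from the other NTG libraries: Hspa1a was at 128 normalized counts there and at 2042, 1235 and 988 in libraries 1, 2 and 4. Hspa1b fell (adjusted p = 0.0443) but passed in 1 of 7 fits with 1 library left out, that without NTG library 3 (adjusted p = 0.000639). In the same fit Hspa1a, Dnajb1 and Hsph1 also passed (adjusted p = 0.00174, 0.000511 and 0.00205). This is the library whose Glrx level was the highest. Hbb-bs, Hbb-bt, Sln, Cidec and Lep were listed as markers and not analysed here. In whole heart RNA fewer cells of a type and less RNA per cell cannot be told apart, and the part of these markers in the members' values was not tested.

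Over the 7 libraries, the genes whose log2 normalized counts followed Txnrd1 most closely among 9666 genes with a mean count of at least 50 were Clic4 (Pearson r = 0.997), Phka1 (0.996) and Rtn4 (0.995). All 3 were higher in mNrf2-TG libraries and lowest among these in library 19, as Rtn4 shows with 754, 838, 919 and 799 normalized counts in NTG hearts and 3104, 3194 and 2236 in mNrf2-TG hearts. For Txnip they were Cep250 (0.968), Zfp212 (0.967) and Creb3l2 (0.961), each lowest in NTG library 1. These correlations are descriptions over 7 libraries that share groups and depth, and no test was made. Because the genes were picked by this correlation, their shared pattern follows from the choice.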

How the data were processed

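RNA from 4 NTG and 3 mNrf2-TG hearts, 1 library per heart, was selected with oligo(dT) and made into stranded libraries, of which 50 bases were read from 1 end. Alignment was by Novoalign 2.08.01, and the authors deposited read counts per gene without normalization. Their methods name hg19 for the index and mm10 for the mapping, and the counting program is not given in the sources used here. Their DESeq2 1.32.0 results (fold changes and p-values) and normalized values were not used, other than symbols and identifiers.

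Of 14665 entries, 24 that repeated a gene were removed, which left 14641, and 14637 with a summed count above 1 were tested. Depth was 6534684 to 8405857 counted reads per library, at which genes with a few reads carry little information. Libraries were grouped by the genotype labels. mNrf2-TG and NTG were compared with edgeR 4.0.16 (R 4.3.3), TMM factors, the quasi-likelihood test and Benjamini-Hochberg adjustment, which was tested on simulated data. The SE is the Log2FC divided by the square root of F. Pair ratios used 0.5 added to each count. Alternatives were DESeq2 1.42.0, limma-voom (limma 3.58.1), other scalings and filters, other lengths and pseudocounts, and each library left out. Leaving out libraries for the peroxiredoxin count was chosen after seeing the data. RPKM was computed from TMM-scaled counts and all exons of GENCODE M21. Promoter windows are from RefSeq. Python 3.11.15 made tables and plots.

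The members and lists were chosen with earlier results of these data known. All 10 members were named. From each pathway list up to 5 genes past the test with the largest Log2FC were named, with every peroxiredoxin, and the 3 genes most like Txnrd1 and Txnip. Cell type markers were given by counts. Txnrd3, Mlx, Mlxip, Acta2, Nppa, Myl7, the heat shock genes, P4hb, Map3k5 and the Dvl genes fall outside this rule and were chosen after their values were seen. The labels do not say that the hearts came from separate litters. The p-values set the group difference against the spread between these hearts within groups, and treat the hearts as independent. Intervals cover 95%. One overlapping gene is not reported here.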

Additional observations from a re-analysis of the deposited data

How the results depend on the processing

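No paired analysis was made, because the labels do not say which mNrf2-TG and NTG hearts came from the same litter. The calls for Txn1, Txnrd1 and Srxn1 held in all 13 alternative fits. The number of genes called over the whole table, 2519, lay between 1373 and 2950 with 1 library left out. It was 2950 without NTG library 3, 1603 and 1597 without NTG libraries 1 and 2, and 1373, 1496 and 1642 without mNrf2-TG libraries 17, 18 and 19. The number of members called was 3 to 5. With group medians the log2 ratio differed by 1.28 for Txn1 over Txn2 (exact permutation p = 0.114) and by 2.53 for Txnrd1 over Txnrd2 (exact permutation p = 0.0571). Both lost the call with this coarser statistic, although the groups did not overlap in either pair. The Log2FC of Txnip ran from -0.03 to 0.30 and that of Nxn from -0.06 to 0.11 with 1 library left out, so the sign of both turned. DESeq2 called 6 iron-sulfur assembly genes in place of 3 and 5 general mitochondrial genes in place of 3, and the library total alone called 2 cardiomyocyte markers in place of 4. The causes were not tested. With 3 against 4 hearts, the Txnrd2 change (Log2FC 0.32, SE 0.0868) lay at the edge of what the test called. The size of a change alone did not set this edge. Glrx3 (Log2FC -0.36, SE 0.0672) passed in 7 of 7 fits with 1 library left out, and Txnrd3 (Log2FC 0.32, SE 0.108) did not pass in the main fit. Glrx5 cannot be assessed.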

Other observations

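Thioredoxin-fold proteins of the endoplasmic reticulum, which form and rearrange disulfides during protein folding, gave 1 higher and 1 lower gene of 16 (median Log2FC 0.07). These are 2 called genes, beside 17.2% of all genes tested. Txndc5 had a Log2FC of 0.26 (adjusted p = 0.0401) and passed in 1 of 7 fits with 1 library left out. Tmx1, a membrane-bound disulfide isomerase, fell by 0.83 on the log2 scale (adjusted p = 0.00689) and passed in 7 of 7. P4hb, the most widely known member of the family, had a Log2FC of -0.04 (adjusted p = 0.795).

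Of 6 genes for proteins that thioredoxin reduces or binds, Rrm2, a subunit of ribonucleotide reductase, passed with low counts, normalized means of 10.3 for NTG and 32.3 for mNrf2-TG (adjusted p = 0.0417), and in 2 of 7 fits with 1 library left out. In this list DESeq2 also called 1 gene, and limma-voom called 0. Map3k5, which encodes the kinase ASK1, had a Log2FC of -0.11 (adjusted p = 0.448). Among 3 Dishevelled genes, partners of nucleoredoxin, edgeR called 0 (1 at an unadjusted p under 0.05, and 0 by DESeq2 and by limma-voom), and the Log2FC were -0.21 for Dvl1, -0.43 for Dvl2 and -0.15 for Dvl3.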
